A study of Rattus norvegicus with 32 samples.

Results

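The 9 genes described here encode the growth factor TGF-beta 1 (Tgfb1), a protein that activates it (Thbs1), a protein made in answer to it (Ccn2), 2 matrix proteins (Fn1, Sparc), 2 matrix-degrading proteases (Mmp2, Mmp14) and 2 protease inhibitors (Timp1, Timp2). They were chosen by name, and each name matched 1 of the 32883 Ensembl genes in the deposited table. Polyadenylated RNA, extracted with TRIzol, was sequenced from livers of male rats of the inbred Lewis strain, and the study concerned transplanted livers with macrosteatosis, in which hepatocytes hold large fat droplets. The groups were livers of long-term survivors (8 libraries), livers after transplantation (11 of 12 labelled) and livers before transplantation (11 of 12 labelled). The labels gave no fat content, treatment arm, sampling time, donor or recipient genotype or batch for any group, and did not say that each library came from its own animal. The spread behind each p-value is therefore that between samples, and it may be technical.

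TGF-beta is secreted in a latent form bound to the matrix, and thrombospondin 1 and integrins release it. It signals through paired receptors to SMAD proteins, and in liver it is best known as the signal that makes hepatic stellate cells turn into matrix-producing myofibroblasts. Matrix metalloproteinases cut the deposited matrix, and tissue inhibitors of metalloproteinases (TIMPs) hold those enzymes in check, so that the balance of both sets the turnover of matrix.

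RefSeq promoters on build GRCr8 were found for 6 of the 9 genes, namely Tgfb1, Thbs1, Ccn2, Sparc, Timp1 and Timp2. The 250 bases before the start of 3 of them are shown, of Ccn2 because its post-transplant and pre-transplant levels did not overlap, and of Thbs1 and Timp1 because their post-transplant levels differed most from the pre-transplant ones. Ccn2 lies on the minus strand (chr1:22624615-22624864), Thbs1 on the plus strand (chr3:125510000-125510249) and Timp1 on the minus strand (chrX:3771123-3771372). Capitals mark matches to the TEAD motif GGAATG, the SMAD element CAGACGGA, the AP-1 variant TGAGTAA and the TATA box TATAAA, searched on both strands. The AP-1 motif TGANTCA had no match in the 6 promoters.
Ccn2: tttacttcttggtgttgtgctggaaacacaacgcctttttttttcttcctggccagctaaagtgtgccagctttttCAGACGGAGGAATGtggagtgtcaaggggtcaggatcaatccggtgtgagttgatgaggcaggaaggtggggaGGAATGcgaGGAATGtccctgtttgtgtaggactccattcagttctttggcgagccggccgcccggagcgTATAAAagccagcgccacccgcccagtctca
Thbs1: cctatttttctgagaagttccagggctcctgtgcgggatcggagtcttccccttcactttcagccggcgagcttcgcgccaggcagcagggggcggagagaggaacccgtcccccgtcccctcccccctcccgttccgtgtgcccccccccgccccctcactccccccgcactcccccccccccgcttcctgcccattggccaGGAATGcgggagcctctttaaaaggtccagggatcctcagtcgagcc
Timp1: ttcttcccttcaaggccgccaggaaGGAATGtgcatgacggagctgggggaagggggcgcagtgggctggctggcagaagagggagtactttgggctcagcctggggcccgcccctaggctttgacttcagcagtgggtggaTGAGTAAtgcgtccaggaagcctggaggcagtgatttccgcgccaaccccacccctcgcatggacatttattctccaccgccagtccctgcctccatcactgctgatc
The Ccn2 stretch held GGAATG 3 times, the outermost 166 and the innermost 92 bases before the start, and the outermost one directly followed the only CAGACGGA in the 6 promoters, 174 bases before the start. Of 33469 rat promoters of the same length, 12.1% held GGAATG at least 1 time, 0.0807% held it at least 3 times and 0.487% held CAGACGGA. The Thbs1 stretch held GGAATG 47 bases before the start, the Timp1 stretch held it 225 bases before the start, and Sparc held it on the other strand 33 bases before the start. The Timp1 stretch also held TGAGTAA, as did 2.38% of all promoters. TATAAA stood 31 bases before the start of Ccn2 and was present in 12.9% of promoters. The SP1 motif GGGCGG, not put in capitals, was present in 30.5% of promoters, with 2 matches in Ccn2, 2 in Thbs1, 1 in Timp1 and 1 in Timp2. The Tgfb1 stretch held none of these motifs. A match is a run of letters and was not tested as a site.

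Reads assigned to genes, recovered from the steps of the deposited FPKM (fragments scaled by gene length and a divisor for each library), numbered 17401155 to 18482059 in long-term survivor, 15802817 to 18464388 in post-transplant and 15372950 to 19311664 in pre-transplant libraries. The divisor was 0.7828 (post-transplant replicate 5) to 1.4104 (post-transplant replicate 11) times these reads. It was thus not the read total alone, and the deposited values already carried a scaling between libraries. Among long-term survivors, replicates 3 and 7, and also 4 and 8, lay far closer together than other libraries of 1 group. Their chi-square, divided by its degrees of freedom, was 3.135 and 3.447, where the other 136 pairs had 24.2 to 352.9. Libraries of a pair differed beyond sampling noise and entered as separate libraries, but each pair may be repeat libraries of 1 liver. The p-values with 8 long-term survivor libraries would then be too small, and values with each pair averaged were computed as well. Values of unannotated genes were whole reads for 3.15% to 5.03% of values in long-term survivor libraries and for all values in the other libraries, so the long-term survivor values may come from another processing run, which no label names. Group and run cannot then be told apart. Values rescaled by median-of-ratios factors therefore stand beside part of the long-term survivor comparisons. A value given without a rescaled one is on the deposited scale only. Of the pre-transplant columns, 2 carried the same header, so 1 of them (replicates u1 and u2) may be another sample. Replicate numbers only name libraries.

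All 9 genes passed the filter of at least 1 FPKM in at least 8 of the 30 libraries. Thbs1 passed it through 4 long-term survivor and 11 post-transplant libraries, with only 1 pre-transplant library at 1 FPKM or more. It needed post-transplant libraries to pass, so the filter favoured a higher level in that group. The other 8 genes reached 1 FPKM in at least 10 pre-transplant libraries. Changes are log2 fold changes ± SE on the log2(FPKM + 1) scale from limma, which understates the change of low genes. A gene was called at an adjusted p under 0.05, by Benjamini-Hochberg over all 11924 genes tested.

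After transplantation, 8 of the 9 genes rose against pre-transplant livers and none fell; Fn1 was not called. Of all genes tested, 23.4% were called higher and 26.6% lower. The median change of the 9 genes was 1.15, against -0.03 for all genes. Of the 9, 7 rose at least 2-fold (a log2 change of at least 1), which 6.69% of all genes did, and Ccn2 alone had groups that did not overlap, which 2.98% of all genes had in that direction and 0.964% in the other. The counts of 8 and 7 both include Thbs1, whose rise the filter favoured.

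In long-term survivors, 2 of the 9 genes, Ccn2 and Timp2, were called higher than in pre-transplant livers, where 3.85% of all genes were called higher and 30.8% lower. The median change of the 9 genes was 0.36, against -0.17 for all genes. After rescaling, which moved the median of all genes by 0.16, 4 were called higher, with Tgfb1 and Mmp2 added. Without the close pair of replicates 3 and 7, and without rescaling, the adjusted p was 0.425 for Tgfb1 and 0.377 for Mmp2. None of the 9 was called higher at least 2-fold, which 1.04% of all genes were. None had groups that did not overlap, which 0.403% of all genes had in the higher and 3.09% in the lower direction. The call of Timp2 rested on single libraries, as given with its values.

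Against post-transplant livers, 8 of the 9 genes were lower in long-term survivors, where 36.9% of all genes were called lower and 10.5% higher. Among the 8 was Thbs1, for which the filter favoured a higher post-transplant level. Sparc, Mmp14 and Timp1 were lower without overlap, which held for 5.59% of all genes. The median change of the 9 genes was -0.92, against -0.16 for all genes. After rescaling, which moved the median of all genes by 0.17, 5 remained called, without Ccn2, Mmp2 and Timp2. The 3 comparisons share libraries, so their values are given side by side and are not independent of each other.

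**Figure D1:**
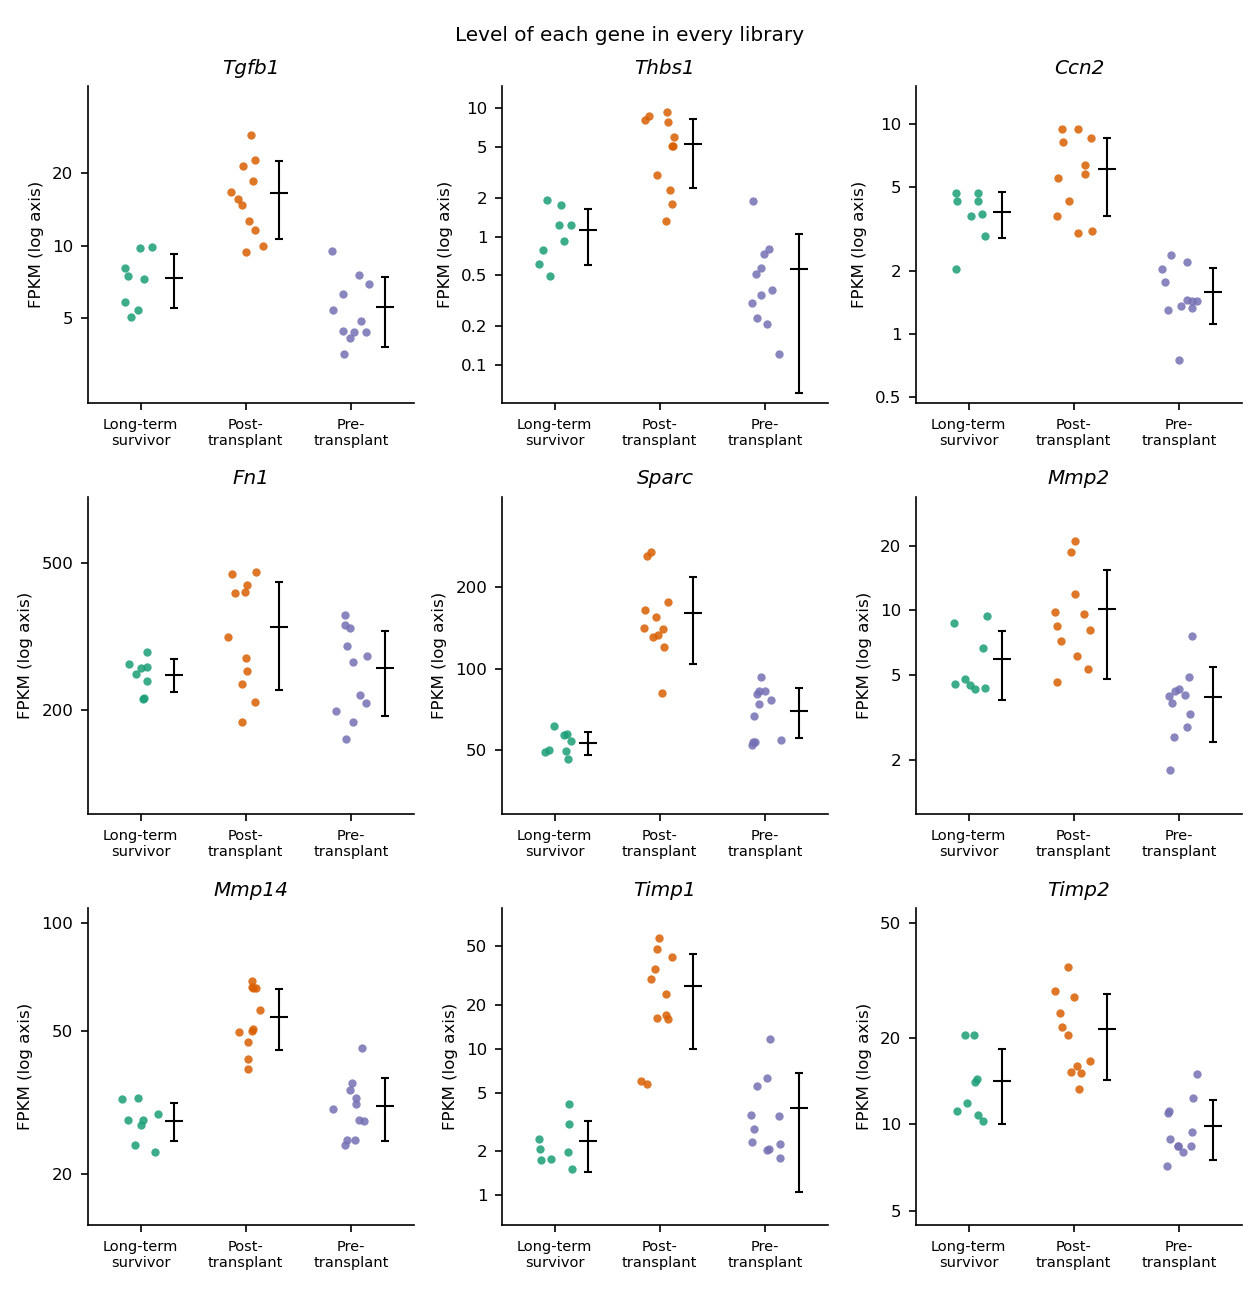
FPKM of each of the 9 genes in every library on a log axis, for long-term survivor (n = 8), post-transplant (n = 11) and pre-transplant (n = 11) livers; bars give the mean ± SD. Post-transplant points of Ccn2 lie above every pre-transplant point, while those of Fn1 overlap both other groups.

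Tgfb1 (ENSRNOG00000020652, chromosome 1, 82480195 to 82497199, plus strand, in the Rnor_6.0 build that the processing notes list) encodes the ligand itself. Its lowest, median and highest levels were 5.05, 7.40 and 9.84 FPKM in long-term survivor, 9.44, 15.6 and 28.6 FPKM in post-transplant and 3.57, 4.88 and 9.48 FPKM in pre-transplant livers. Of the 11 post-transplant libraries, 10 lay above the highest pre-transplant one, and long-term survivors overlapped both other groups. Tgfb1 rose after transplantation by 1.38 ± 0.16 (adjusted p = 1.27e-07), with means of 16.5 ± 5.88 and 5.59 ± 1.80 FPKM (SD, n = 11 and 11) in post-transplant and pre-transplant livers. In long-term survivors the change was 0.36 ± 0.18 against pre-transplant livers (adjusted p = 0.126) and -1.03 ± 0.18 against post-transplant livers (adjusted p = 4.1e-05). After rescaling, the first of these was 0.53 (adjusted p = 0.0364). Without long-term survivor replicates 3 and 7, and without rescaling, it was 0.22 (adjusted p = 0.425).

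Thbs1 (ENSRNOG00000045829, chromosome 3, 109862117 to 109873466, plus strand) encodes thrombospondin 1, which frees TGF-beta from its latent complex. It had the lowest median of the 9 genes in every group, with 7 to 139 reads in a pre-transplant library. Its levels, as lowest, median and highest, were 0.492, 1.07 and 1.92 FPKM in long-term survivor, 1.33, 5.08 and 9.33 FPKM in post-transplant and 0.121, 0.383 and 1.91 FPKM in pre-transplant livers. Of the 11 post-transplant libraries, 9 lay above the highest pre-transplant one, which was u2, and the next pre-transplant library stood at 0.807 FPKM. Thbs1 rose after transplantation by 1.90 ± 0.23 (adjusted p = 1.2e-07). The means were 5.32 ± 2.91 and 0.557 ± 0.497 FPKM (SD, n = 11 and 11) in post-transplant and pre-transplant livers, a 9.55-fold ratio of means, and limma-voom on the recovered reads gave a change of 3.37. Without u1 and u2 the change was 2.04 (adjusted p = 1.07e-07). In long-term survivors the change of Thbs1 against pre-transplant livers was 0.46 ± 0.25, which was not called (adjusted p = 0.148). It was called with a pseudocount of 0.1 (1.05, adjusted p = 0.0328), with only these groups in the fit (adjusted p = 0.031) and with array weights (0.61, adjusted p = 0.00331), and voom gave 1.25 (adjusted p = 0.095). Without long-term survivor replicates 3 and 7 the change was 0.31 (adjusted p = 0.426). Against post-transplant livers Thbs1 was lower, with a change of -1.44 ± 0.25 (adjusted p = 3.06e-05).

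Ccn2 (ENSRNOG00000015036, chromosome 1, 21851660 to 21854773, minus strand) encodes connective tissue growth factor, a secreted matrix-associated protein and a known target of both TGF-beta and the YAP and TEAD transcription factors. Ccn2 had lowest, median and highest levels of 2.03, 4.01 and 4.70 FPKM in long-term survivor, 3.02, 5.81 and 9.48 FPKM in post-transplant and 0.752, 1.44 and 2.38 FPKM in pre-transplant livers. Every post-transplant library lay above every pre-transplant one, and 7 of 8 long-term survivor libraries did so too, all but replicate 1. Ccn2 rose after transplantation by 1.40 ± 0.16 (adjusted p = 8.43e-08). In long-term survivors it was higher than in pre-transplant livers by 0.88 ± 0.18 (adjusted p = 0.000379), and this call held in all 31 alternative settings (0.83 to 1.26). Against post-transplant livers it was lower, with a change of -0.52 ± 0.18 (adjusted p = 0.0172). That call ended after rescaling (-0.35, adjusted p = 0.114), with quantile normalization (-0.29, adjusted p = 0.167) and with no filter (adjusted p = 0.0583).

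Fn1 (ENSRNOG00000014288, chromosome 9, 78900103 to 78969078, minus strand) encodes fibronectin, which hepatocytes secrete into plasma and mesenchymal cells build into matrix. It had the highest median of the 9 genes in every group. Fn1 had lowest, median and highest levels of 214, 256 and 288 FPKM in long-term survivor, 186, 316 and 472 FPKM in post-transplant and 167, 269 and 361 FPKM in pre-transplant livers. The groups overlapped throughout, and 5 of 11 post-transplant libraries lay above the pre-transplant range. Fn1 was not called after transplantation (0.34 ± 0.16, adjusted p = 0.088), nor in long-term survivors against pre-transplant livers (-0.02 ± 0.18, adjusted p = 0.938) or against post-transplant livers (-0.36 ± 0.18, adjusted p = 0.0973). The post-transplant change was called with quantile normalization (0.75, adjusted p = 0.000176), without post-transplant replicate 11 (0.39, adjusted p = 0.0455) and without post-transplant replicate 12 (0.41, adjusted p = 0.0309). Against post-transplant livers Fn1 was called lower with quantile normalization (-0.46, adjusted p = 0.0242) and without post-transplant replicate 12 (-0.43, adjusted p = 0.0373). The deposited table holds AABR07068042.1 on the opposite strand over part of Fn1, at up to 2.71 FPKM, and whether reads were counted by strand is not given in the sources used here.

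Sparc (ENSRNOG00000012840, chromosome 10, 40742400 to 40764185, minus strand) encodes osteonectin, a collagen-binding protein of remodelling tissue. Across libraries, the lowest, median and highest values of Sparc were 46.2, 51.9 and 61.1 FPKM in long-term survivor, 81.0, 141 and 271 FPKM in post-transplant and 52.3, 73.9 and 93.0 FPKM in pre-transplant livers. Long-term survivors lay below every post-transplant library, and 4 of 8 also lay below the pre-transplant range. After transplantation 10 of 11 libraries exceeded the pre-transplant range, all but replicate 3. Sparc rose after transplantation by 1.15 ± 0.15 (adjusted p = 4.61e-07). In long-term survivors it was lower than in post-transplant livers, with a change of -1.52 ± 0.16 (adjusted p = 6.7e-08). Against pre-transplant livers the change was -0.37 ± 0.16 and was not called (adjusted p = 0.0772), but it was called lower with only these groups in the fit (adjusted p = 0.0148), with array weights (adjusted p = 0.0274) and with voom (adjusted p = 0.0462). After rescaling it was -0.17 (adjusted p = 0.517).

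Mmp2 (ENSRNOG00000016695, chromosome 19, 15542765 to 15570611, minus strand) encodes gelatinase A, which cuts basement membrane collagen and is made mostly by mesenchymal cells. Levels of Mmp2 were at the lowest, median and highest 4.29, 4.66 and 9.36 FPKM in long-term survivor, 4.61, 8.41 and 21.1 FPKM in post-transplant and 1.79, 3.98 and 7.56 FPKM in pre-transplant livers. Of the post-transplant libraries, 7 of 11 lay above the pre-transplant range, and of the long-term survivor libraries only the close pair 3 and 7 did. Mmp2 rose after transplantation by 1.10 ± 0.21 (adjusted p = 6.05e-05). In long-term survivors the change was 0.49 ± 0.22 against pre-transplant livers (adjusted p = 0.0875) and, after rescaling, 0.66 (adjusted p = 0.038). The first of these was called with only these groups in the fit (adjusted p = 0.0355), with array weights (adjusted p = 0.0266) and without pre-transplant replicate 1 (adjusted p = 0.0398). Without long-term survivor replicates 3 and 7 it was 0.29 and not called (adjusted p = 0.377). Against post-transplant livers Mmp2 was lower, with a change of -0.60 ± 0.22 (adjusted p = 0.0267). That call ended after rescaling (-0.42, adjusted p = 0.13), with no filter (adjusted p = 0.0826), with quantile normalization (adjusted p = 0.154) and without any 1 of post-transplant replicates 2 and 12 or long-term survivor replicates 2, 5 and 8 (adjusted p = 0.051 to 0.0531).

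Mmp14 (ENSRNOG00000010947, chromosome 15, 33074441 to 33083655, plus strand) encodes the membrane-bound collagenase MT1-MMP, which also activates pro-MMP2 at the cell surface together with TIMP2. For Mmp14, the lowest, median and highest levels were 23.1, 28.2 and 32.5 FPKM in long-term survivor, 39.2, 50.6 and 68.6 FPKM in post-transplant and 24.004, 30.3 and 44.9 FPKM in pre-transplant livers. Post-transplant libraries lay above all long-term survivor libraries, and 9 of 11 lay above the pre-transplant range. Mmp14 had the smallest change among the 8 called genes after transplantation, 0.80 ± 0.11 (adjusted p = 5.27e-07). In long-term survivors it was lower than in post-transplant livers, with a change of -0.92 ± 0.12 (adjusted p = 5.23e-07). Against pre-transplant livers the change was -0.11 ± 0.12 (adjusted p = 0.466), and 0.08 after rescaling (adjusted p = 0.658).

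Timp1 (ENSRNOG00000010208, chromosome X, 1364786 to 1369384, minus strand) encodes a secreted inhibitor of most metalloproteinases. Timp1 had lowest, median and highest levels of 1.51, 2.03 and 4.20 FPKM in long-term survivor, 5.71, 23.5 and 57.0 FPKM in post-transplant and 1.80, 2.84 and 11.6 FPKM in pre-transplant livers. Long-term survivors lay below every post-transplant library. Of the post-transplant libraries 9 lay above the pre-transplant range, while replicates 5 and 9, at 5.71 and 6.06 FPKM, lay within it, and the highest pre-transplant library was u2. Timp1 rose after transplantation by 2.36 ± 0.32 (adjusted p = 7.47e-07), the largest of the 9 changes on the log2(FPKM + 1) scale. The ratio of means was 6.79 for Timp1 and 9.55 for Thbs1, and voom gave 2.68 for Timp1 and 3.37 for Thbs1, so that Thbs1 ranked first by both. Mean levels were 27.0 ± 17.01 and 3.97 ± 2.92 FPKM (SD, n = 11 and 11) in post-transplant and pre-transplant livers. Without u1 and u2 the change was 2.53 (adjusted p = 4.94e-07), and without post-transplant replicate 9, which had the second lowest Timp1 level of its group, it was also 2.53 (adjusted p = 8.31e-08). In long-term survivors Timp1 was lower than in post-transplant livers, with a change of -2.80 ± 0.35 (adjusted p = 4.38e-07). Against pre-transplant livers the change was -0.44 ± 0.35 and was not called (adjusted p = 0.332). Reads of Timp1 numbered 19 to 65 in a long-term survivor library. Syn1 overlaps it on the opposite strand, at up to 1.49 FPKM.

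Timp2 (ENSRNOG00000003148, chromosome 10, 107338465 to 107386072, minus strand) encodes the inhibitor that also takes part in the activation of pro-MMP2. For Timp2, the lowest, median and highest levels were 10.3, 12.9 and 20.4 FPKM in long-term survivor, 13.2, 20.4 and 35.3 FPKM in post-transplant and 7.12, 8.90 and 14.9 FPKM in pre-transplant livers. Of the post-transplant libraries 10 of 11 lay above the pre-transplant range, and of the long-term survivor libraries again only replicates 3 and 7 did. Timp2 rose after transplantation by 1.01 ± 0.15 (adjusted p = 3.94e-06). In long-term survivors it was higher than in pre-transplant livers by 0.47 ± 0.17 (adjusted p = 0.0297). That call ended without long-term survivor replicate 3 or without replicate 7 (adjusted p = 0.0788 each), without both (0.29, adjusted p = 0.216), with the close pairs averaged (0.37, adjusted p = 0.13), without pre-transplant replicate 5 (adjusted p = 0.0519) and with no filter (adjusted p = 0.106). After rescaling it was 0.66 (adjusted p = 0.00708). Against post-transplant livers Timp2 was lower, with a change of -0.54 ± 0.17 (adjusted p = 0.00876), and this was no longer called after rescaling (-0.34, adjusted p = 0.0986) or with quantile normalization (-0.41, adjusted p = 0.0654). Cep295nl, on the same strand within its span, reached at most 0.129 FPKM.

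**Figure D2:**
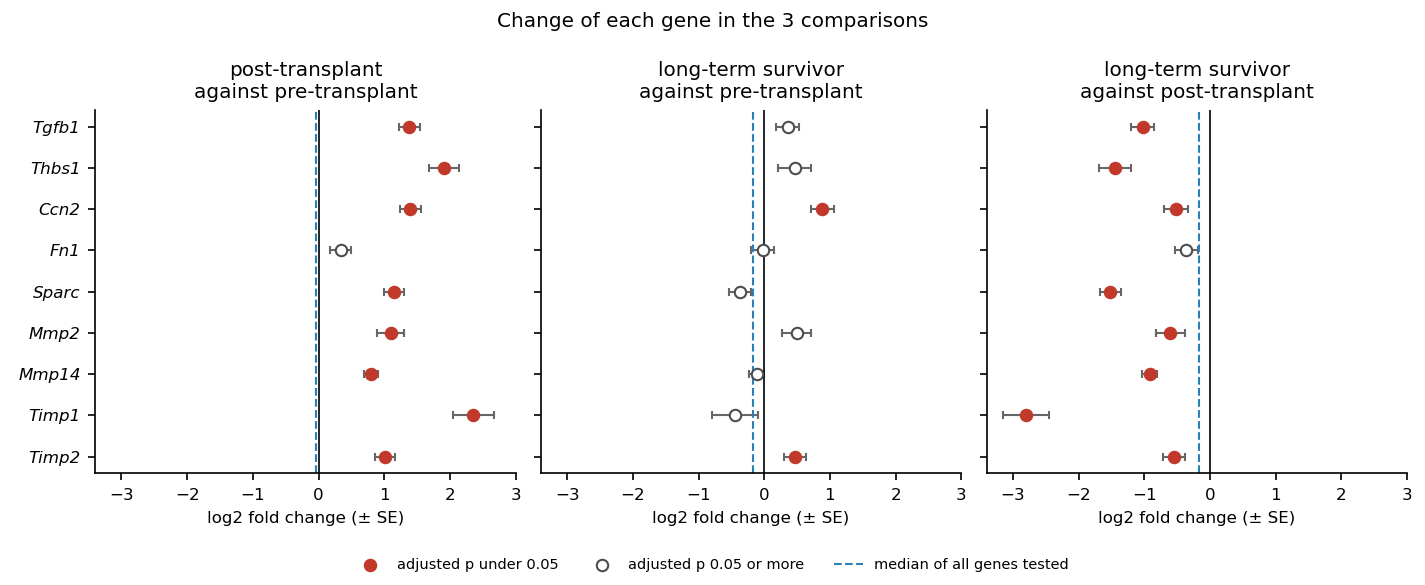
Log2 fold change ± SE of each gene in the 3 comparisons; filled points have an adjusted p under 0.05 and the dashed line is the median of all genes tested. After transplantation 8 of 9 points are filled on the right, in long-term survivors against pre-transplant livers only Ccn2 and Timp2 are filled, and against post-transplant livers 8 are filled on the left.

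Ratios within a library set the inhibitors against each other and against a protease. The Timp1 to Timp2 ratio of FPKM had a median of 0.169 in long-term survivor, 1.05 in post-transplant and 0.288 in pre-transplant livers. Its log2 value, taken on FPKM + 1, was higher in post-transplant than in pre-transplant livers by 1.35 (permutation test, two-sided, adjusted p = 0.00259 over the 9 ratio tests), with 9 of 11 libraries above the pre-transplant mean. In long-term survivors it was lower than in pre-transplant livers, with a change of -0.91 (exact permutation test, adjusted p = 0.00101) and lower than in post-transplant livers, with a change of -2.26 (exact permutation test, adjusted p = 0.000476), with all 8 libraries below the other group's mean in each case.

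The Timp1 to Mmp2 ratio had a median of 0.399 in long-term survivor, 1.97 in post-transplant and 0.826 in pre-transplant livers. Its log2 value was higher by 1.26 in post-transplant than in pre-transplant livers (permutation test, adjusted p = 0.0112), and 9 of 11 libraries lay above the pre-transplant mean. In long-term survivors it was lower than in pre-transplant livers, with a change of -0.94 (exact permutation test, adjusted p = 0.000893) and than in post-transplant livers, with a change of -2.20 (exact permutation test, adjusted p = 0.00101). Single-gene tests did not call Timp1 between long-term survivor and pre-transplant livers. Both of its ratios differed there, with 8 of 8 long-term survivor libraries below the pre-transplant mean, but the groups overlapped. The Timp1 to Timp2 ratio ranged over 0.105 to 0.236 in long-term survivor and 0.162 to 1.38 in pre-transplant livers. The Timp1 to Mmp2 ratio ranged over 0.309 to 0.541 and 0.450 to 3.53 in these groups.

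The Ccn2 to Tgfb1 ratio had a median of 0.502 in long-term survivor, 0.353 in post-transplant and 0.314 in pre-transplant livers. Post-transplant and pre-transplant livers differed by 0.02 on the log2 scale (permutation test, adjusted p = 0.901), less than the spread within either group (SD 0.35 and 0.29). With a pseudocount of 0.1 in place of 1 the difference was 0.30 (permutation test, adjusted p = 0.0899), so its size depends on the value added to the low Ccn2 levels. In long-term survivors the log2 ratio was higher than in pre-transplant livers by 0.53 (exact permutation test, adjusted p = 0.0112) and than in post-transplant livers by 0.51 (exact permutation test, adjusted p = 0.019), with 7 of 8 libraries above the other group's mean in each case.

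**Figure D3:**
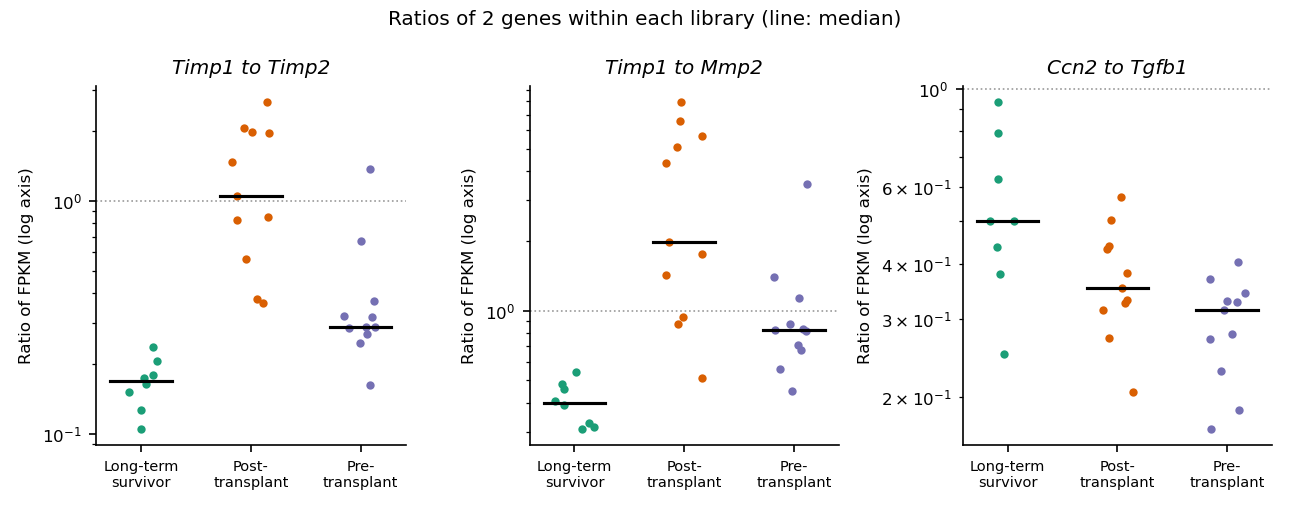
Ratio of FPKM of 2 genes within each library on a log axis, by group, with the median as a line and a dotted line at a ratio of 1. Long-term survivor livers have the lowest median Timp1 ratios (0.169 and 0.399), with ranges that overlap those of pre-transplant livers, and the highest median Ccn2 to Tgfb1 ratio (0.502).

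In levels per gene length, the order was Fn1, Sparc and Mmp14 from the top in every group, with Thbs1 at the bottom. Timp1 stood at position 4 after transplantation, above Timp2 in 6 of 11 libraries, so this pair of neighbours did not differ beyond their spread. In long-term survivors Timp1 stood at position 8, under Ccn2 in 7 of 8 libraries. In pre-transplant livers Timp1 stood at position 7, above Ccn2 in 10 of 11 libraries. Ccn2 and Thbs1 were neighbours after transplantation, with Ccn2 the higher in 9 of 11 libraries.

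Single libraries did not rank alike for all 9 genes. Among post-transplant libraries, replicate 2 was highest for Sparc, Mmp2 and Timp2, replicate 6 for Thbs1, Fn1 and Timp1, and replicate 11 for Tgfb1 and Ccn2. Replicate 5 was lowest for Tgfb1, Thbs1 and Timp1. In each post-transplant library 5 to 9 of the 9 genes lay above the pre-transplant range. Among long-term survivors, replicates 3 and 7 were among the top 3 libraries for 7 genes each, and 4 and 5 genes of theirs lay above the pre-transplant range, against at most 1 gene in the other 6 libraries.

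**Figure D4:**
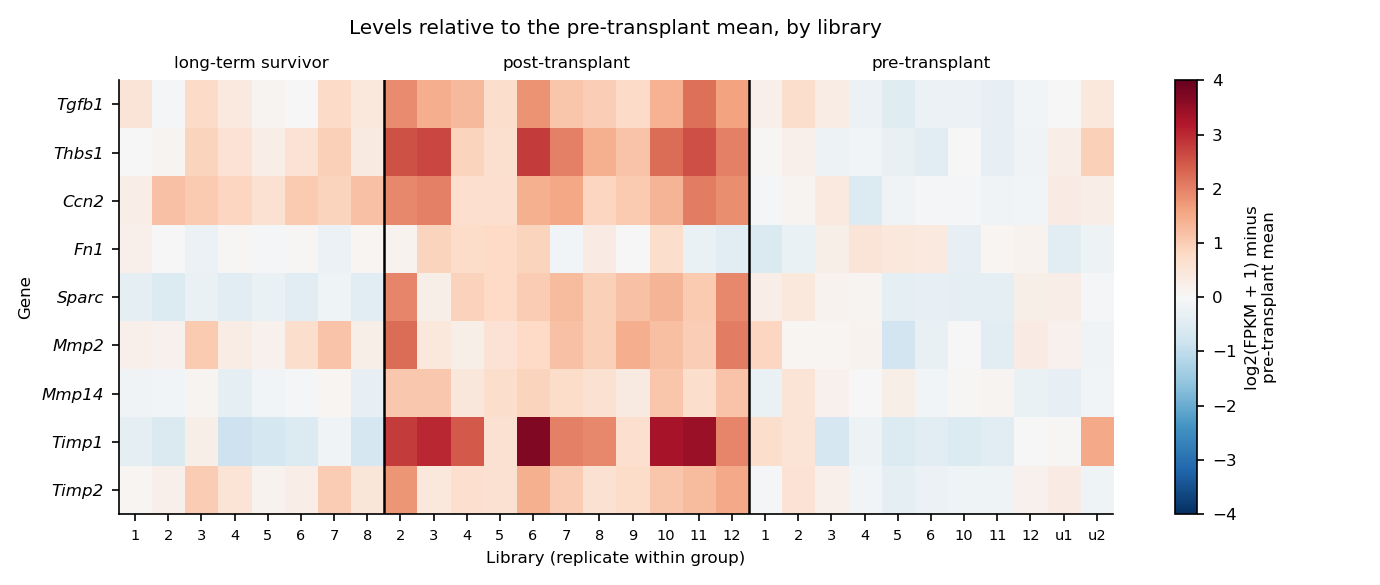
Log2(FPKM + 1) of the 9 genes in each library minus the pre-transplant mean; columns are libraries named by replicate within long-term survivor, post-transplant and pre-transplant groups. Timp1 and Thbs1 are darkest in post-transplant replicates 2, 3, 6, 10 and 11, and values of Fn1 overlap between the groups.

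Deviations from the group means over the 30 libraries, which share depth and scaling factors, gave a description of which genes moved together within groups. Pearson's r had a median of 0.38 over the 36 pairs and was positive in 29. Sparc and Mmp2 (r = 0.81), Sparc and Timp2 (0.75) and Mmp2 and Timp2 (0.70) formed one closely related set. Thbs1 and Timp1 (0.81), Tgfb1 and Timp1 (0.75) and Tgfb1 and Thbs1 (0.72) formed another, and Tgfb1 was also close to Timp2 (0.71). Ccn2 was close to Thbs1 (0.74) but less so to Tgfb1 (0.55) and Timp1 (0.44). Fn1 was negatively related to Mmp2 (-0.64) and Sparc (-0.54).

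For each of the 9, the 2 other genes with the highest r are given. For Sparc they were Col5a2 (0.91), a chain of fibrillar collagen V, and C1qtnf6 (0.90), and for Mmp2 they were the collagen VI chains Col6a2 (0.92) and Col6a1 (0.91). Timp2 was closest to Pxdn (0.90), which encodes the basement membrane enzyme peroxidasin, and Gask1b (0.88). For Thbs1 they were Flna (0.90) and Tagln2 (0.89), which encode actin-binding proteins, and for Timp1 they were Anxa2 (0.90), a calcium-dependent membrane-binding protein, and Myl12a (0.89), a myosin light chain. Tgfb1 was closest to Ppp1r9b (0.94), an actin-binding scaffold protein, and Fxyd5 (0.93). Values were lower for Ccn2, with Gnb1 (0.82) and Apaf1 (0.81), for Fn1, with Tm9sf4 (0.83) and Igfbp4 (0.78), and for Mmp14, with Crispld2 (0.66) and Slc48a1 (0.65).

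**Figure D5:**
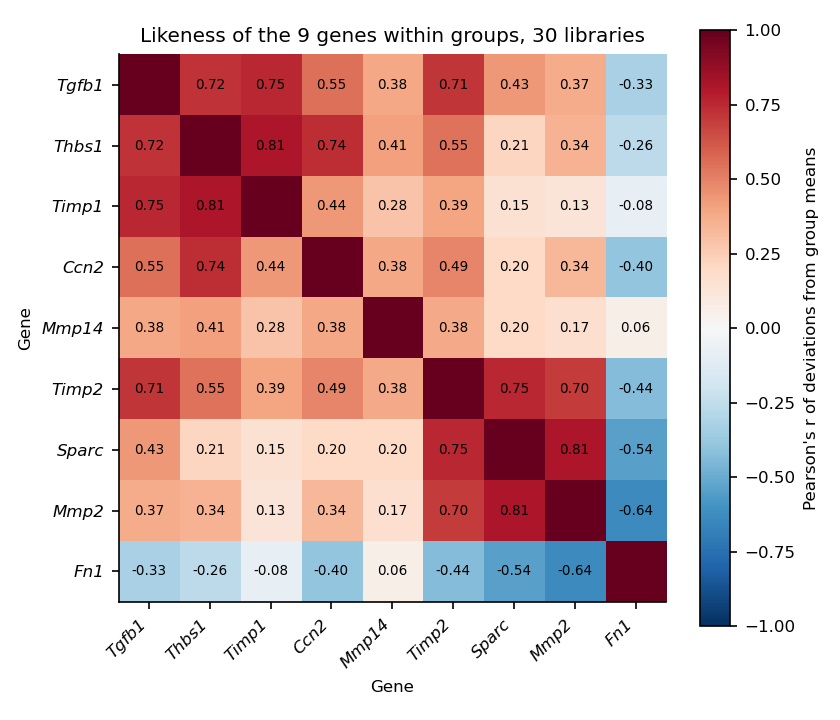
Pearson's r between the 9 genes, computed on deviations of log2(FPKM + 1) from the group means over 30 libraries. Sparc, Mmp2 and Timp2 form one block (0.70 to 0.81), Tgfb1, Thbs1 and Timp1 another (0.72 to 0.81), and Fn1 is negative with most genes.

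Genes around the 9 were described from lists of the TGF-beta pathway and of matrix turnover, without the 9 themselves. Among genes of TGF-beta ligands, latency and activation, 12 of 15 tested rose after transplantation and 1 fell, with a list median of 0.72. The 12 include Lum and Thbs2, which needed post-transplant libraries to pass the filter, so the filter favoured their rise. Lum reached at most 0.313 FPKM in pre-transplant livers, and Thbs2 at most 0.959 FPKM in long-term survivors. Genes of the following lists that were low in the other groups needed these libraries too. For this and the following lists, the shares of all genes tested were 23.4% higher and 26.6% lower after transplantation, 3.85% and 30.8% in long-term survivors against pre-transplant livers, and 10.5% and 36.9% against post-transplant livers. Dcn, which encodes the TGF-beta binding proteoglycan decorin, averaged 19.3 ± 8.404 FPKM in post-transplant and 2.27 ± 1.38 FPKM in pre-transplant livers (2.599 ± 0.22, adjusted p = 6.3e-10). Nrros (1.12 ± 0.13, adjusted p = 1.15e-07) and Lrrc32 (0.72 ± 0.09, adjusted p = 1.26e-07), which encode the proteins that hold latent TGF-beta on cell surfaces, rose without overlap. In long-term survivors 5 were higher and 1 lower than in pre-transplant livers, among them Dcn (1.42 ± 0.24, adjusted p = 5.18e-05) and the latent TGF-beta binding protein gene Ltbp1 (0.54 ± 0.13, adjusted p = 0.00217). After rescaling 5 were higher and 0 lower. Of the 5 called higher before rescaling, the call of Bgn ended in 13 of 31 alternative settings and that of Tgfb3 in 5. Against post-transplant livers 8 were lower and none higher in long-term survivors, or 7 and 1 after rescaling. Lum and Thbs2, for which the filter favoured a higher post-transplant level, were among the 8.

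Of 17 tested genes of receptors and SMADs, 4 rose and 1 fell after transplantation, with a list median of 0.09; the share called higher was close to the 23.4% of all genes. Acvrl1, a type I receptor of endothelial cells, rose by 0.66 ± 0.10 (adjusted p = 4.29e-06), and Smad7, an inhibitory SMAD induced by the pathway, fell by 0.37 (adjusted p = 0.0147, or 0.0518 with no filter). The signalling SMADs, named here after their values were seen, were not called in any of the 3 comparisons, with post-transplant changes of 0.04 for Smad2, -0.05 for Smad3 and -0.04 for Smad4. In long-term survivors 3 genes were lower than in pre-transplant livers and none higher, or 1 lower and 2 higher after rescaling. Skil, a SMAD co-repressor, was lower, with a change of -0.83 ± 0.22 (adjusted p = 0.00447). Tgfbr2, the type II receptor, was lower, with a change of -0.52 ± 0.14 (adjusted p = 0.00569), and not called after rescaling (adjusted p = 0.121).

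Of 13 tested TGF-beta and YAP target genes, 8 rose and 1 fell after transplantation. Acta2, which encodes smooth muscle actin, averaged 16.7 ± 8.35 FPKM in post-transplant and 2.73 ± 1.14 FPKM in pre-transplant livers (2.11 ± 0.24, adjusted p = 5.96e-08). In long-term survivors 0 of the 13 were called in either direction against pre-transplant livers, where Ccn2, not counted in the list, was called higher. Against post-transplant livers 7 were lower and 1 higher, or 5 and 2 after rescaling.

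Among proteases, 5 of 7 tested metalloproteinase genes, 8 of 12 ADAM and ADAMTS genes and 9 of 10 genes of the plasminogen system and cathepsins rose after transplantation, and 1 of each list fell. The list medians of the change were 0.50, 0.53 and 1.03, against -0.03 for all genes. Mmp9 (1.82 ± 0.34, adjusted p = 5.21e-05) and Mmp8 (1.43 ± 0.22, adjusted p = 5.37e-06) encode proteases of neutrophils and macrophages. Mmp8 reached at most 1.01 FPKM in long-term survivor and 0.125 FPKM in pre-transplant livers. Mmp9 reached at most 0.294 FPKM in long-term survivors and averaged 0.576 FPKM in pre-transplant livers. Both needed post-transplant libraries to pass the filter, which favoured their rise and so the metalloproteinase count. Adamts4, an aggrecanase, had 1.01 to 4.66 FPKM in post-transplant livers and at most 0.551 FPKM in pre-transplant livers; like Adam19 it passed the filter only through post-transplant libraries, so it had to differ. Plau (1.78 ± 0.16, adjusted p = 2.26e-09) and its receptor gene Plaur (1.76 ± 0.24, adjusted p = 8.61e-07) encode the urokinase system, and Lgmn (1.87 ± 0.15, adjusted p = 6.3e-10) encodes the lysosomal protease legumain. In long-term survivors against pre-transplant livers 1 gene of each list was higher, Mmp15 (1.12 ± 0.20, adjusted p = 0.00015), Adamts5 (1.15 ± 0.21, adjusted p = 0.000189) and Ctsb (0.30 ± 0.12, adjusted p = 0.0484), and 1, 3 and 1 were lower, all of which were no longer called after rescaling. The call of Ctsb, which encodes cathepsin B, ended in 19 of 31 alternative settings, among them no filter (adjusted p = 0.17), pairs averaged (adjusted p = 0.1), without u1 and u2 (adjusted p = 0.0687) and the omission of most single libraries (adjusted p up to 0.0844). Mmp15 and Adamts5 were also higher than in post-transplant livers (0.61 and 1.05).

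Of 10 tested inhibitors, 6 rose and 2 fell after transplantation, among them A2m, which encodes the plasma inhibitor alpha-2-macroglobulin (3.38 ± 0.45, adjusted p = 5.76e-07), and Serpinf1, which encodes PEDF (-0.93 ± 0.15, adjusted p = 1.08e-05). Timp3 rose by 1.16 ± 0.22 (adjusted p = 7.3e-05). Among matricellular genes 4 of 8 rose and 1 fell. Postn, which encodes periostin, ranged over 0.412 to 25.1 FPKM in post-transplant livers and reached at most 0.0692 FPKM in pre-transplant livers. It and Tnc, which encodes tenascin C and also stands in the list of target genes, passed the filter only through post-transplant libraries, so the counts of both lists include genes that had to differ. Thbs2, which is also counted among the matricellular genes that rose, needed post-transplant libraries to pass as well. Spp1, which encodes osteopontin, was higher in long-term survivors than in pre-transplant livers (2.37 ± 0.47, adjusted p = 0.000341).

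For collagen processing and crosslinking, 12 of 16 tested genes rose and 1 fell after transplantation, and in long-term survivors 14 were lower than in post-transplant livers and none higher, or 11 after rescaling. The 12 and the 14 include Plod2, at most 0.751 FPKM in pre-transplant livers. It needed post-transplant libraries to pass the filter, which favoured a higher level in that group. Pcolce, an enhancer of procollagen cleavage, averaged 48.9 ± 30.7 FPKM in post-transplant and 3.85 ± 2.64 FPKM in pre-transplant livers (3.31 ± 0.36, adjusted p = 3.61e-08). It was also higher in long-term survivors than in pre-transplant livers (1.64 ± 0.40, adjusted p = 0.00208), the 1 gene of the list called higher there. The 3 called lower were Lox (-1.99 ± 0.59, adjusted p = 0.0102), Loxl2 (-0.52, adjusted p = 0.0281) and Bmp1 (-0.49, adjusted p = 0.000804). Lox ranged widely in pre-transplant livers, over 0.293 to 27.3 FPKM, and its call ended with voom (adjusted p = 0.0954). The call of Loxl2 ended in 6 of 31 alternative settings and that of Bmp1 in 2. After rescaling 2 were higher and 1 lower. Of 15 tested fibronectin and vitronectin receptors and matrix partners, 10 rose and 2 fell after transplantation, while Fn1 itself was not called. Itga9 (0.79 ± 0.12, adjusted p = 3.41e-06), an integrin chain that binds a fibronectin splice segment, and Itgb1 (0.85 ± 0.12, adjusted p = 1.86e-06), the common beta chain, were among them. In long-term survivors 3 were lower than in pre-transplant livers, or 1 lower and 1 higher after rescaling.

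Markers of cell types moved in the same comparisons, and in bulk samples fewer cells of a type and less RNA per cell cannot be told apart. Of 13 tested stellate cell and fibroblast markers, 11 rose and none fell after transplantation, of 11 macrophage markers 10 rose, and of 7 neutrophil markers 7 rose, where 23.4% of all genes rose. Thy1 among the stellate cell and fibroblast markers and Cxcr2 among the neutrophil markers passed the filter only through post-transplant libraries. Lum and Csf3r, at most 0.313 and 0.599 FPKM in pre-transplant livers, could not have passed without these libraries either. The filter thus favoured a higher post-transplant level in the counts of both lists. The summed stellate cell and fibroblast markers ranged over 92.8 to 145.8 FPKM in long-term survivor, 185.9 to 704 FPKM in post-transplant and 49.7 to 117.2 FPKM in pre-transplant livers, with Des, Pdgfrb and Col1a1 detected in every library. Of that list, 3 genes (Acta2, Dcn and Lum) also stand in the pathway lists. Summed macrophage markers ranged over 305.3 to 405.5 FPKM in long-term survivor, 679.2 to 2543 FPKM in post-transplant and 200.7 to 474.7 FPKM in pre-transplant livers. Summed neutrophil markers ranged over 10.1 to 54.8 FPKM in long-term survivor, 48.0 to 713.5 FPKM in post-transplant and 6.89 to 16.5 FPKM in pre-transplant livers, with Mpo at 0 in some libraries of each group. In long-term survivors 4 stellate cell, 1 macrophage and 2 neutrophil markers were higher and 2 stellate cell markers lower than in pre-transplant livers, and 11, 10 and 7 were lower than in post-transplant livers. Their part in the changes of the 9 genes was not tested.

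Of 11 endothelial markers 4 rose and 1 fell after transplantation, and 7 were lower in long-term survivors than in pre-transplant livers. Their sum ranged over 51.5 to 106.5 FPKM in long-term survivor, 118.8 to 176.7 FPKM in post-transplant and 75.2 to 160.5 FPKM in pre-transplant livers. Of 3 tested platelet markers, 1 rose after transplantation, and 2 were lower in long-term survivors than in pre-transplant livers (1 after rescaling), with Ppbp at 0 in some libraries of each group. Summed platelet markers ranged over 7.34 to 12.6 FPKM in long-term survivor, 21.6 to 33.5 FPKM in post-transplant and 10.7 to 16.7 FPKM in pre-transplant livers. Of 10 hepatocyte markers 4 fell after transplantation, and 0 were called in long-term survivors against pre-transplant livers (1 higher after rescaling). Their sum ranged over 58740 to 97020 FPKM in long-term survivor, 25380 to 84350 FPKM in post-transplant and 52010 to 109500 FPKM in pre-transplant livers. Of 8 tested bile duct cell markers, 8 were higher in long-term survivors than in pre-transplant livers, with summed levels of 30.9 to 166.2 FPKM in long-term survivor, 25.9 to 75.1 FPKM in post-transplant and 17.1 to 45.6 FPKM in pre-transplant livers and Krt7 at 0 in some pre-transplant libraries. After transplantation 4 of the 8 rose and 1 fell. Of that list, Spp1 also stands in the matricellular list, so its change is counted in both. The part of these cell types in the levels of the 9 genes was not tested.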

How the data were processed

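The authors deposited 1 table of values per gene and library. The authors' deposited values are taken as FPKM, a unit inferred from the numbers themselves, as the header states none. HISAT2 2.0.5, Rnor_6.0 and mm10 are named, per the submitters' processing notes, but without saying which build served what. The counting program, with its annotation and strand setting, is not given in the sources used here. Multiplied by gene length, the values of Ensembl genes up to 5000 reads were whole multiples of a single step in all 30 libraries, within 0.02 reads, so that reads and the divisor of each library could be recovered.

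Columns were tied to samples by header. Of 32 columns 2 were not used, since 1 header matching a post-transplant sample stands on both. Another repeated header gave pre-transplant replicates u1 and u2. The 1218 unannotated rows were used only to compare whole reads.

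The test was limma 3.58.1 in R 4.3.3 on log2(FPKM + 1), with empirical Bayes (trend and robust), two-sided and with all 3 groups fitted together, on genes reaching 1 FPKM in 8 or more libraries, with Benjamini-Hochberg adjustment and a threshold of 0.05. Member ratios were tested by permutation, exact with the 8 long-term survivor libraries and with 100000 resamples otherwise. The fits were checked on simulated data. Alternatives were median-of-ratios or quantile scaling, limma-voom on recovered reads, array weights, a pseudocount of 0.1, a fit without trend or robust variance, one without the filter, one on the compared groups alone, close pairs averaged, and libraries left out.

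The 9 genes, the lists and the alternatives were chosen with earlier results of these data known. Genes around the 9 were named by rule, up to 4 called genes per list and comparison with the smallest adjusted p, and per member the 2 genes with the highest r. Promoter sequences are RefSeq's (GRCr8), searched in Python 3.11.15. Some genes that the rule took are left unreported.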

Additional observations from a re-analysis of the deposited data

How the results depend on the processing

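After transplantation, the counts of the 9 genes called higher (8 to 9) and of all genes called higher (2635 to 3455) or lower (2656 to 3563) stayed within 1.5 times of the reported values in all 32 alternatives. Of the 288 values of single genes of the 9, 285 kept direction and call, and 3 of Fn1 became called.

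In long-term survivors against pre-transplant livers, the number of the 9 genes called higher, reported as 2, was 4 with median-of-ratios scaling, 4 with only the groups compared, 5 with array weights, and 1 with no filter, with the pairs averaged and without replicates 3 and 7; leaving out 1 library gave 1 to 3. The number called lower, reported as 0, was 1 (Sparc) with only the groups compared, with array weights and with voom. Of all genes, 459 were called higher, against 985 with median-of-ratios scaling, 906 with quantile normalization, 950 with array weights, 287 with the pairs averaged and 295 without replicates 3 and 7 (366 to 499 leaving out 1 library). The 3675 called lower became 2427 with no filter, 1151 with median-of-ratios scaling and 1067 with quantile normalization. Fn1, which was not called, changed sign with median-of-ratios scaling (0.18), quantile normalization (0.29) and without long-term survivor replicates 3 and 7 (0.0475), and leaving out 1 library gave -0.0807 to 0.0296. Mmp14, not called either, changed sign with median-of-ratios scaling (0.0849) and quantile normalization (0.12).

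In long-term survivors against post-transplant livers, 5 of the 9 genes instead of 8 were lower with median-of-ratios scaling (7 to 8 leaving out 1 library). Of all genes, 1255 were called higher, against 2573 with median-of-ratios scaling and 2903 with quantile normalization, and 4401 lower, against 2497 and 2445. The Ccn2 to Tgfb1 ratio after transplantation was not called, and changed sign without post-transplant replicate 9 (-0.01); leaving out 1 library gave -0.0417 to 0.0833. With a pseudocount of 0.1 it was 0.30 (permutation test, adjusted p = 0.0899), the highest of its values. The other 8 ratio tests kept direction and call in every alternative run. Apart from these scalings, the cause of each change was not tested. No paired analysis was possible because the labels give no replicate numbers, only titles with no pairing between groups. Reads limit Thbs1 and Timp1 most, with 7 and 19 reads in their lowest libraries.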

Other observations

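Some genes of the pathway lists stood below the filter and were not tested, yet averaged at least 1 FPKM in a group. They were chosen after their values were seen. Ccn5, which encodes a CCN family protein that lacks the C-terminal module of Ccn2, had a lowest, median and highest level of 0.896, 2.90 and 9.33 FPKM in long-term survivor, 0.083, 0.242 and 0.863 FPKM in post-transplant and 0.0706, 0.155 and 0.515 FPKM in pre-transplant livers. Every long-term survivor library lay above every library of the other groups. Itgb6, which encodes the beta chain of an epithelial integrin that activates latent TGF-beta, had 0.391, 1.17 and 3.93 FPKM in long-term survivor, 0.14, 0.331 and 1.92 FPKM in post-transplant and 0.0359, 0.0945 and 0.36 FPKM in pre-transplant livers. Long-term survivors lay above the pre-transplant range and overlapped post-transplant livers. The bile duct cell markers given above were higher in the same libraries as a group, and their part in these levels was not tested.

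Tgfb2, a further ligand of the family, had 0.383, 0.795 and 2.05 FPKM in long-term survivor, 0.417, 0.837 and 1.58 FPKM in post-transplant and 0.148, 0.272 and 0.439 FPKM in pre-transplant livers. Adam12, a protease of activated mesenchymal cells, had 0.0196, 0.0539 and 0.177 FPKM in long-term survivor, 0.308, 0.805 and 2.78 FPKM in post-transplant and 0.0612, 0.208 and 0.379 FPKM in pre-transplant livers. The other 5 such genes, Adam8, Thbs4, Ccn3, Itga8 and Fbln2, had group medians between 0.165 and 0.962 FPKM.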
